A study of Mus musculus with 12 samples.

Results

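The TGF-beta and BMP pathway was examined in the colon and urinary bladder of mice made to delete the genes of YAP and TAZ in smooth muscle, and of their controls. The genes described are 42 pathway members chosen by gene name, of 54532 genes in the tables, and all 42 were found. They are 12 ligands of the TGF-beta, BMP, and activin family, 4 latent TGF-beta binding proteins, 9 receptors, 5 secreted antagonists, 8 SMADs, and 4 ID target genes. RNA of whole tissue homogenates, taken from 9 male mice, gave 12 libraries, with 1 mouse behind each library and 3 libraries per genotype and tissue. Both genotypes carried floxed *Yap1* and *Wwtr1* (the gene of TAZ) and received 1 mg tamoxifen per mouse per day for 5 days, at an age of 5 to 7 weeks. Tissue was taken 7 days after the first injection. Y/T KO mice were also positive for Myh11CreERT2, a tamoxifen-activated recombinase driven by the promoter of smooth muscle myosin heavy chain, and Ctrl mice were negative for it. The transgene lies on the Y chromosome and acts in smooth muscle, whereas the RNA came from all cells of the tissue. Values of single libraries are given in a fixed order, which in the colon is 788, 786, 787 (Ctrl) and 759, 783, 780 (Y/T KO), and in the bladder 784, 785, 788 (Ctrl) and 782, 783, 780 (Y/T KO), by mouse number. Mice 788, 783, and 780 gave both tissues.

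Ligands of this family are secreted dimers that bind paired type I and type II serine/threonine kinase receptors. TGF-beta and activin ligands act mainly through SMAD2 and SMAD3, and BMP ligands through SMAD1, SMAD5, and SMAD9, each together with the shared SMAD4, while SMAD6 and SMAD7 are inhibitory. TGF-beta is secreted in a latent form that is held in the matrix by latent TGF-beta binding proteins, and BMP ligands are trapped by secreted antagonists such as gremlin and noggin. The *Id* genes encode inhibitors of basic helix-loop-helix transcription factors and are classic transcriptional targets of BMP signaling. In the gut, BMP ligands and their antagonists set the balance between crypt and surface epithelium, and TGF-beta is a known regulator of smooth muscle differentiation and matrix. YAP and TAZ are coactivators that act through TEAD transcription factors.

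Levels are given as TPM, the length-corrected share of a library's transcripts that StringTie computed for the authors, so that genes can be compared within a library. TPM holds no read counts, and the aligned sequence behind each library was 2.80 to 3.94 gigabases. Fold changes are of log2(rescaled TPM + 0.1), which understates changes of low genes. A gene was tested in a tissue where it reached 0.5 TPM in at least 3 of the 6 libraries, and was called at a Benjamini-Hochberg adjusted p under 0.05 from limma over all genes tested. The marker genes went with the labelled tissues, since intestinal epithelium markers summed to 3237 to 3862 TPM in the colon libraries and 306 to 381 TPM in the bladder libraries, and urothelium markers to 20.8 to 34.3 and 4337 to 5724 TPM. Most of the intestinal sum in the bladder came from *Epcam* (46.7 to 108 TPM), *Cdh1* (114 to 134 TPM), and *Krt20* (128 to 162 TPM). *Vil1*, *Cdx1*, and *Cdx2* of the same list were at 0 to 0.322 TPM there. The sum of 7 smooth muscle markers was lower in every Y/T KO library than in every Ctrl library, at 4912 to 5777 against 7476 to 8225 TPM in the colon and 16545 to 30414 against 34863 to 45428 TPM in the bladder. The highest Y/T KO bladder sum was that of mouse 782. There *Myh11* (2722 TPM) was above Ctrl (2454 to 2652 TPM) and *Smtn* (572 TPM) was within the Ctrl range (473 to 598 TPM). The remaining markers of the list were lower there than in every Ctrl bladder library. Fewer cells of a type and less RNA per cell cannot be told apart in such samples, for these markers or for any pathway gene. The bladder libraries of Ctrl mouse 784 and Y/T KO mice 783 and 780 held transcripts of male accessory glands, with 4 such genes (*Sbp*, *Sbpl*, *Msmb*, and *Defb50*, chosen after their values were seen) at 46250 to 64528 TPM against 17.2 to 44.7 TPM in the other bladder libraries. The bladder library of Ctrl mouse 785 had *Ctgf* at 769 TPM, *Cyr61* at 658 TPM, and *Ankrd1* at 125 TPM, against 28.03 to 173, 7.28 to 93.1, and 0.127 to 9.55 TPM in the other bladder libraries. *Ankrd1* also separated the genotypes in the bladder, at 9.55, 125 and 6.35 TPM in Ctrl, against 0.154, 0.127 and 0.692 TPM in Y/T KO. *Ctgf* and *Cyr61* overlapped between genotypes there. Whole-tissue *Yap1* was at 45.8 to 54.9 TPM in the Ctrl colon libraries, against 41.3 to 47.0 TPM in the Y/T KO colon libraries (log2 fold change -0.18 ± 0.14 SE, adjusted p = 0.697 by limma), and at 98.6 to 109.8 TPM in Ctrl, 69.4 to 72.1 TPM in Y/T KO, in the bladder (log2 fold change -0.54 ± 0.08 SE, adjusted p = 0.0625 by limma). *Wwtr1* was no lower in Y/T KO libraries (log2 fold change 0.18 ± 0.16 SE, adjusted p = 0.73 by limma in the colon and log2 fold change 0.24 ± 0.24 SE, adjusted p = 0.678 by limma in the bladder), and such whole-gene values do not single out the deleted exons.

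No member passed the adjusted threshold in the colon, and *Id3* and *Id4* fell in the bladder. Limma called 0 of the 41 members tested in the colon, where 0.137% of all 17500 genes tested were called. At an unadjusted p under 0.05, 6 members were higher and 6 lower in the Y/T KO colon, beside 5.14% and 4.59% of all genes. The genotypes did not overlap for 18 of the 41 members, 10 higher and 8 lower, beside 7.52% and 8.28% of all genes. Overlap was judged here and below on TPM as deposited, whereas fold changes and p-values used rescaled TPM. After rescaling, *Bmp2* and *Tgfb3* in the colon and *Smad1* in the bladder overlapped. *Chrd* in the colon and *Tgfbr3* in the bladder then separated, both higher in Y/T KO. In the bladder 2 of 41 members were called, both lower, beside 0.219% of the 18237 genes tested that were called lower. At an unadjusted p under 0.05, 0 were higher and 5 lower, beside 6.64% and 8.2% of all genes, and 0 members were higher and 8 lower without overlap, beside 10.4% and 10% of all genes. The median log2 fold change of the members was -0.03 in the colon, against -0.10 in the bladder, and 16 of 41 and 14 of 41 were above 0, beside 50.9% and 50.2% of all genes. In TPM as deposited, the members that separated the genotypes were therefore all lower in the Y/T KO bladder, whereas in the colon they lay in both directions.

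**Figure D1:**
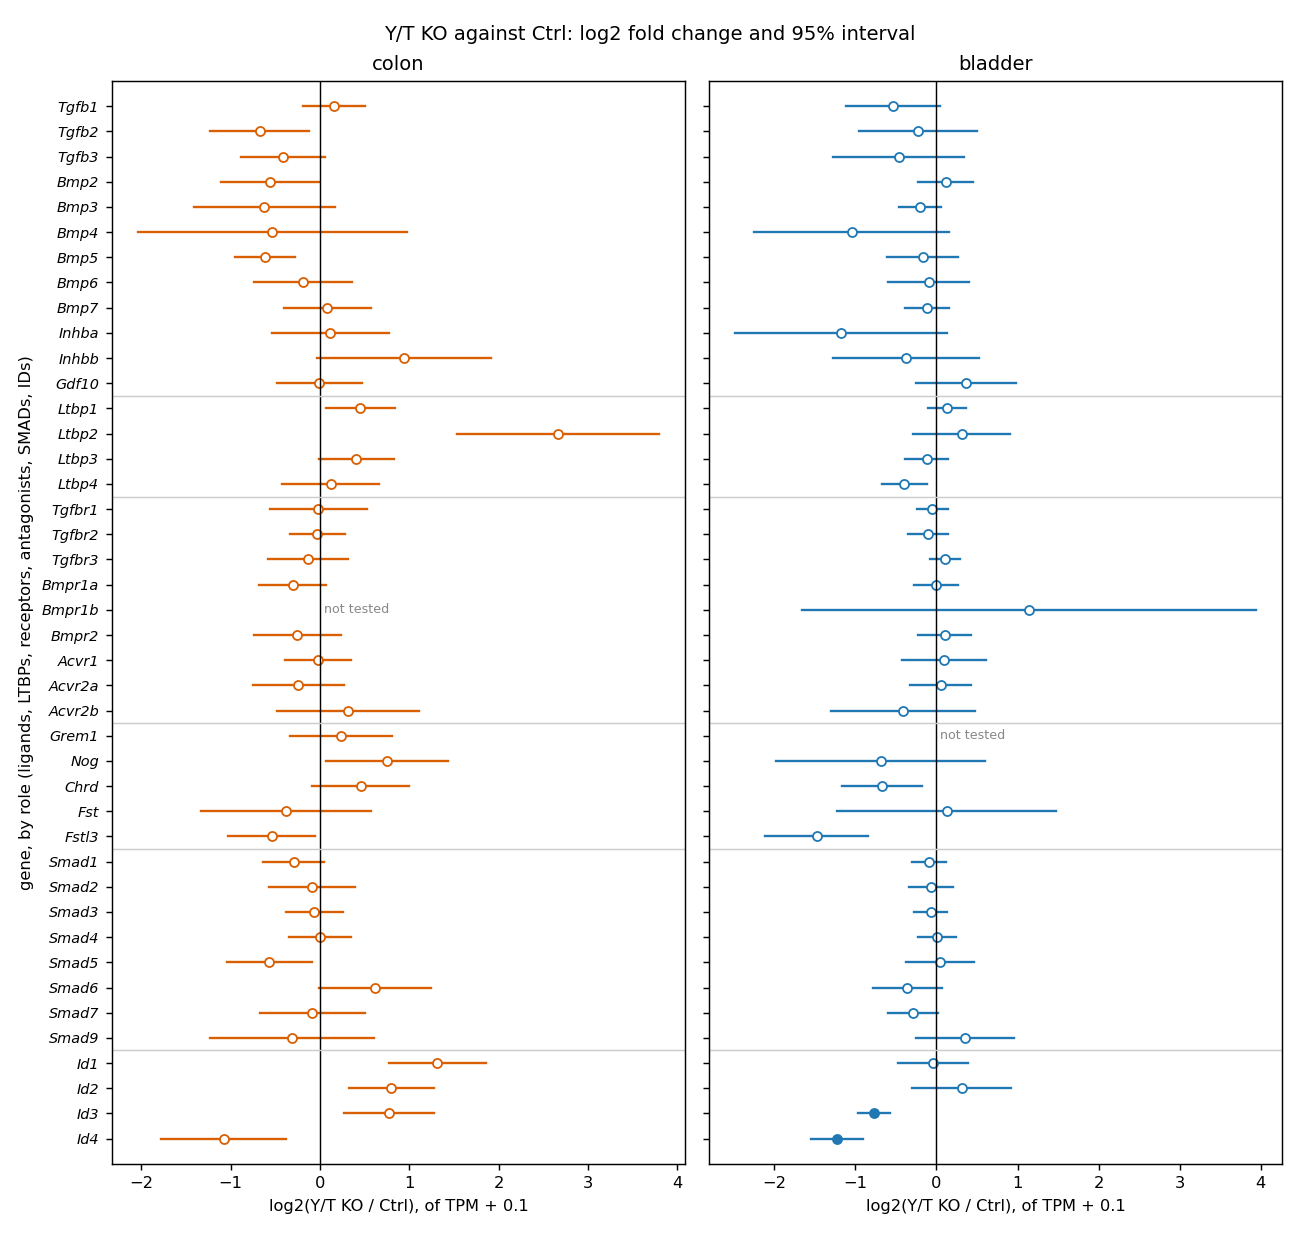
Log2 fold change of Y/T KO against Ctrl, of TPM + 0.1 (horizontal axes), with its 95% interval (lines) for the 42 members ordered by role (vertical axis), in the colon and the bladder; filled points are called at an adjusted p under 0.05. Only *Id3* and *Id4* in the bladder are filled, *Id1* and *Ltbp2* lie farthest to the right in the colon, at 1.32 and 2.67, and *Bmpr1b* in the bladder lies at 1.14 with an interval of -1.66 to 3.95.

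The ID target genes were the only role in which every member separated the genotypes in the colon. In the colon, *Id1*, *Id2*, and *Id3* were higher and *Id4* lower in every Y/T KO library than in every Ctrl library. None of the 4 passed the adjusted threshold there. Of all genes tested in the colon, 7.52% were higher and 8.28% lower without overlap. The early response gene *Fos* was also higher in every Y/T KO colon library, at 50.7, 50.5 and 104 TPM in Ctrl, against 131, 244 and 106 TPM in Y/T KO. *Egr1*, another early response gene, overlapped, at 8.74, 9.20 and 14.8 TPM in Ctrl, against 25.8, 24.0 and 14.4 TPM in Y/T KO. *Fos*, *Egr1*, and the YAP target genes *Ctgf*, *Cyr61*, and *Ankrd1* were chosen as a list after their values were seen. These 5 genes summed to 152 to 265 TPM in Ctrl colon, against 249 to 394 TPM in Y/T KO colon, which overlapped. Within that sum *Ankrd1* was lower in every Y/T KO library, at 4.597, 2.43 and 3.75 TPM in Ctrl, against 0.128, 0.342 and 0.149 TPM in Y/T KO. *Ctgf* (74.2 to 107 TPM in Ctrl, 60.75 to 93.9 TPM in Y/T KO) and *Cyr61* overlapped between genotypes. The part of these 5 genes in the ID gene values was not tested. In the bladder, *Id3* and *Id4* fell and were the only members called in either tissue, whereas *Id1* and *Id2* overlapped between genotypes.

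*Id1* (ENSMUSG00000042745, GRCm38 chromosome 2, 152736251 to 152737410) was found at 166, 112 and 185 TPM in the Ctrl colon libraries, against 353, 385 and 364 TPM in the Y/T KO colon libraries (log2 fold change 1.32 ± 0.23 SE, unadjusted p = 0.000531, adjusted p = 0.133 by limma). It was the most abundant member in both colon groups, and every Y/T KO library was above every Ctrl library. Its bladder values were 93.0, 121 and 102 TPM in the Ctrl libraries, against 81.5, 112 and 116 TPM in the Y/T KO libraries, which overlapped (log2 fold change -0.04 ± 0.18 SE, adjusted p = 0.935 by limma; 95% interval -0.48 to 0.40). In the colon the adjusted p of *Id1* was 0.0319 when all 12 libraries were fitted together, and 0.0806 to 0.233 in the other settings that kept every library.

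*Id2* (ENSMUSG00000020644, chromosome 12 from 25093799 to 25097140) encodes a family member that is widely expressed in lymphoid and epithelial cells. It stood at 37.2, 25.3 and 31.3 TPM in the Ctrl colon libraries, against 57.1, 56.2 and 45.0 TPM in the Y/T KO colon libraries, without overlap (log2 fold change 0.80 ± 0.21 SE, unadjusted p = 0.00497, adjusted p = 0.332 by limma). In the bladder it was at 204, 114 and 125 TPM in the Ctrl libraries, against 150.4, 193 and 192 TPM in the Y/T KO libraries, with the highest value in the Ctrl library of mouse 784 (log2 fold change 0.31 ± 0.26 SE, adjusted p = 0.608 by limma).

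*Id3* (ENSMUSG00000007872, chromosome 4 from 136143497 to 136145755) separated the genotypes in opposite directions in the tissues. Its colon values were 65.0, 48.7 and 68.1 TPM in the Ctrl libraries, against 83.9, 119 and 100.1 TPM in the Y/T KO libraries (log2 fold change 0.77 ± 0.22 SE, unadjusted p = 0.00751, adjusted p = 0.372 by limma). Its bladder values were 145, 145 and 136 TPM in the Ctrl libraries, against 86.1, 79.7 and 83.7 TPM in the Y/T KO libraries. Every Y/T KO library was above every Ctrl library in the colon and below every Ctrl library in the bladder. *Id3* fell in the bladder by 0.77 on the log2 scale (SE 0.08, limma adjusted p = 0.0236; 95% interval -0.96 to -0.58). The difference of the Y/T KO effect between the colon and the bladder was 1.52 for *Id3* (SE 0.24), with a limma adjusted p of 0.0683 over the 16298 genes tested in both tissues. That adjusted p was 0.0329 with TPM as deposited and 0.0468 with FPKM, 0.0362 without the colon library of Ctrl mouse 786, and 0.0267 without that of Y/T KO mouse 759, and 0.0561 to 0.507 under the other alternatives.

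*Id4* (ENSMUSG00000021379, chromosome 13 from 48261228 to 48266026), which is unusual in its family in that it can oppose the other ID proteins, was lower in Y/T KO in both tissues. Its colon values were 19.8, 23.3 and 20.7 TPM in the Ctrl libraries, against 16.0, 8.73 and 6.54 TPM in the Y/T KO libraries (log2 fold change -1.08 ± 0.30 SE, unadjusted p = 0.00761, adjusted p = 0.372 by limma). Leaving out the colon library of mouse 759, the highest of the Y/T KO libraries, moved its log2 fold change to -1.44 and its adjusted p to 0.0453. In the bladder *Id4* stood at 58.1, 78.6 and 62.3 TPM in the Ctrl libraries, against 31.0, 27.0 and 26.6 TPM in the Y/T KO libraries. *Id4* fell in the bladder by 1.22 on the log2 scale (SE 0.13, limma adjusted p = 0.0274; 95% interval -1.54 to -0.90). The difference of its effect between tissues was 0.12 (SE 0.36, limma adjusted p = 0.908; 95% interval -0.68 to 0.91).

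The bladder calls of *Id3* and *Id4* were each lost when any 1 library was left out, with adjusted p from 0.0541 to 0.142 for *Id3* and from 0.0541 to 0.12 for *Id4*, while their log2 fold changes ran from -0.82 to -0.73 and from -1.29 to -1.09. Both calls were also lost with all 12 libraries in 1 fit (adjusted p = 0.0941 and 0.0674) and without the trend and robust options of limma (0.0753 and 0.0608). Without the 3 bladder libraries that held accessory gland transcripts, which left Ctrl mice 785 and 788 and the single Y/T KO mouse 782, the log2 fold changes were -0.73 (adjusted p = 0.413) and -1.20 (adjusted p = 0.358). The lone Y/T KO library is taken in that fit to vary like the Ctrl libraries. In every Y/T KO bladder library the smooth muscle marker sum was also lower, and the sums of endothelial markers (214 to 236 against 184 to 210 TPM, 5 genes) and of neuron and glia markers (470 to 599 against 362 to 448 TPM, 6 genes) were higher, and the part of these sums in the *Id3* and *Id4* values was not tested. *Id4* overlaps the antisense gene *A330033J07Rik*, which stood at 2.40 to 4.48 TPM in the Ctrl bladder libraries, against 0.498 to 0.631 TPM in the Y/T KO bladder libraries. The noncoding gene *Gm49291*, also on the other strand, overlaps *Id4* as well. The library kit marks strand, but whether the quantification used it is not given in the sources used here. Reads of these overlapping genes may therefore not be fully separated.

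**Figure D2:**
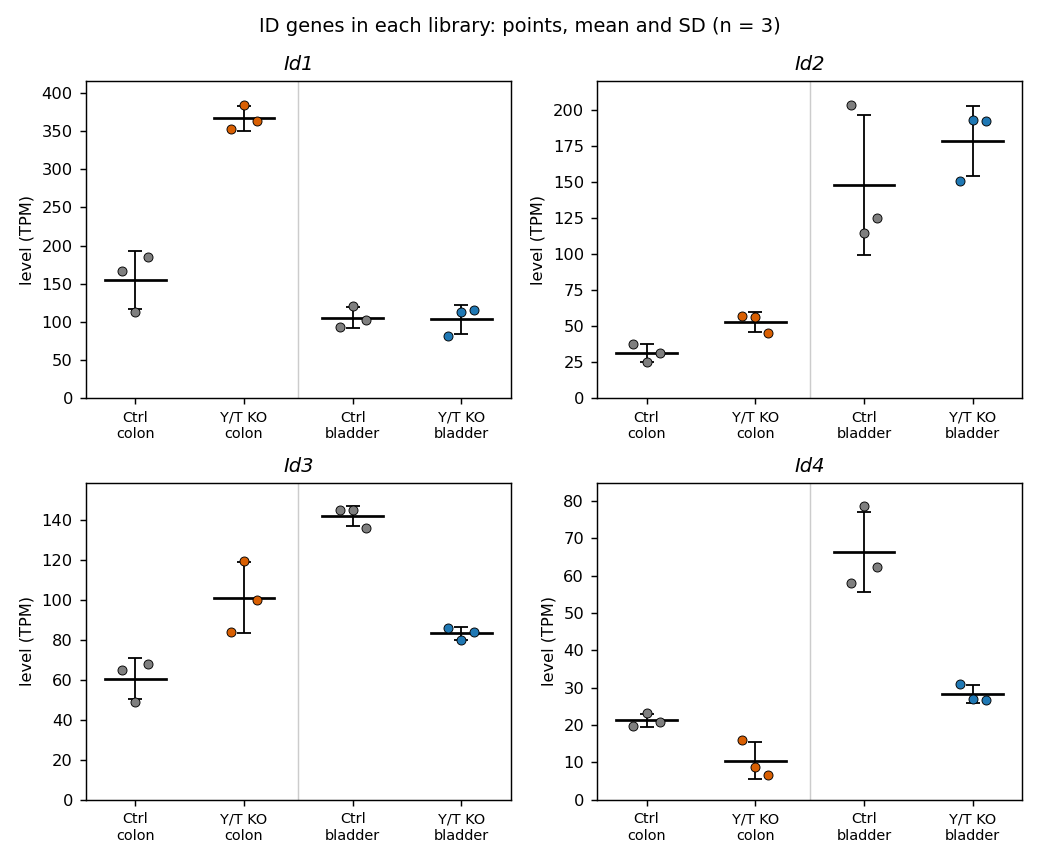
Levels of *Id1*, *Id2*, *Id3*, and *Id4* in TPM (vertical axes, from 0) in each of the 12 libraries (points, grouped by tissue and genotype), with the mean (line) and SD (bars) of 3 libraries. *Id1* sits at 353 to 385 TPM in the Y/T KO colon, above all Ctrl colon libraries, whereas *Id3* and *Id4* sit lower in the Y/T KO bladder (79.7 to 86.1 and 26.6 to 31.0 TPM) than in the Ctrl bladder (136 to 145 and 58.1 to 78.6 TPM).

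Because *Id4* fell in the bladder and was lower in the Y/T KO colon, the sequence before its start is shown. It covers the 250 bases upstream of the RefSeq start (GRCm38.p6, chr13:48260866-48261115, plus strand), overlaps no annotated exon in GENCODE M21, and lies inside the span of the antisense gene. The span of *Gm49291* overlaps this window too. Capitals mark the letters CATTCC, the reverse complement of the TEAD recognition sequence GGAATG, and GGCGCC, a BMP SMAD element that is its own reverse complement.
Id4: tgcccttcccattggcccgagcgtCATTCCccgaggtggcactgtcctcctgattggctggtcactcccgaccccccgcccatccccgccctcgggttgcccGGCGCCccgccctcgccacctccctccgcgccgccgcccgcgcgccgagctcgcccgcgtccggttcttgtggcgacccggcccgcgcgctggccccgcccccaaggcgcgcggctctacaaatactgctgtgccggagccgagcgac
CATTCC begins 226 bases and GGCGCC 148 bases before the start, and the SMAD box, searched as GTCTG and CAGAC, has no match in this window. The motifs do not overlap here. Over the 32851 promoters of the RefSeq table, searched over the same 250 bases on both strands, 12.6% held the TEAD letters, 9.59% GGCGCC, and 42.2% the SMAD box. RefSeq promoters were available for 31 of the 42 members, of which 2 held the TEAD letters, 8 held GGCGCC, and 14 held the SMAD box. A match describes the sequence and does not show that a factor binds there.

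The ligands gave lower values in the Y/T KO colon more often than higher ones, without any call. Of 12 tested in the colon, 8 had a log2 fold change below 0 and 4 above, with a median of -0.30, beside 0.01 over all genes tested. Limma called 0 of the 12, and 3 had an unadjusted p under 0.05, all lower (*Bmp5*, *Tgfb2*, and *Bmp2*), beside 4.59% of all genes. In the bladder 10 of 12 had a log2 fold change below 0, with a median of -0.22 beside 0.00 over all genes, 0 were called, 0 had an unadjusted p under 0.05, and the genotypes overlapped for each of them. In TPM as deposited, the 12 ligands summed to 171 to 217 TPM in Ctrl colon and 132 to 166 TPM in Y/T KO colon, which did not overlap. In the bladder the sums were 333 to 458 against 285 to 371 TPM, which did.

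*Bmp5*, a BMP of mesenchymal cells, stood at 30.8, 40.3 and 34.3 TPM in the Ctrl colon libraries, against 24.3, 20.98 and 21.2 TPM in the Y/T KO colon libraries (log2 fold change -0.62 ± 0.15 SE, unadjusted p = 0.00283, adjusted p = 0.264 by limma). *Bmp2*, which is made by surface epithelium and by mesenchyme in the gut, stood at 51.0, 41.1 and 41.99 TPM in Ctrl, against 39.4, 30.1 and 21.2 TPM in the Y/T KO libraries (log2 fold change -0.56 ± 0.24 SE, unadjusted p = 0.0454, adjusted p = 0.505 by limma). Both were lower in every Y/T KO colon library in TPM as deposited, and after rescaling *Bmp2* overlapped. In the bladder neither was separated, with *Bmp5* at 43.4, 47.1 and 73.2 TPM in the Ctrl libraries, against 46.4, 45.7 and 49.7 TPM in the Y/T KO libraries and *Bmp2* at 21.5 to 30.9 TPM in Ctrl, 25.3 to 31.7 TPM in Y/T KO (limma adjusted p = 0.698 and 0.743).

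Among the TGF-beta isoforms, *Tgfb2* stood at 6.62, 6.67 and 4.66 TPM in the Ctrl colon libraries, against 4.51, 3.33 and 3.02 TPM in the Y/T KO colon libraries (log2 fold change -0.68 ± 0.24 SE, unadjusted p = 0.0234, adjusted p = 0.464 by limma). *Tgfb3*, the isoform with the highest level in the bladder, stood at 13.8, 11.6 and 13.0 TPM in Ctrl, against 7.78, 9.69 and 10.7 TPM in Y/T KO, in the colon (log2 fold change -0.42 ± 0.20 SE, unadjusted p = 0.0744, adjusted p = 0.561 by limma). *Tgfb1*, the isoform best known from immune regulation and fibrosis, stood at 12.6, 12.7 and 11.9 TPM in Ctrl, against 13.6, 14.0 and 12.9 TPM in Y/T KO, a small separation of the colon groups in the other direction (log2 fold change 0.16 ± 0.15 SE, unadjusted p = 0.335, adjusted p = 0.749 by limma). Thus *Tgfb2* and *Tgfb3* were lower and *Tgfb1* higher in every Y/T KO colon library in TPM as deposited, and after rescaling *Tgfb3* overlapped. In Ctrl bladder the library of mouse 785 was highest for *Tgfb2* (20.7, 37.2 and 16.0 TPM) and *Tgfb3* (40.3, 90.8 and 39.4 TPM), the same library that stood apart for *Ctgf* and *Cyr61*. The Y/T KO bladder held 20.6, 17.6 and 20.9 TPM of *Tgfb2* and 44.4, 37.5 and 33.0 TPM of *Tgfb3*, and limma gave adjusted p of 0.754 and 0.564.

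*Inhbb*, a subunit of activin B, was low in the colon, at 0.544, 0.436 and 0.467 TPM in the Ctrl libraries, against 1.078, 0.604 and 1.47 TPM in the Y/T KO libraries (log2 fold change 0.94 ± 0.42 SE, unadjusted p = 0.0567, adjusted p = 0.53 by limma). All 3 Y/T KO values were above the Ctrl values, at about the level of the filter. *Inhba*, a subunit of activin A, overlapped in the colon (1.48 to 2.40 TPM in Ctrl, 1.71 to 2.40 TPM in Y/T KO) and in the bladder (1.14 to 3.66 TPM in Ctrl, 0.649 to 1.55 TPM in Y/T KO). *Bmp4*, a BMP of mesenchyme and muscle, had the widest spread of the abundant ligands, at 66.7, 19.2 and 63.8 TPM in the Ctrl colon libraries, against 41.5, 16.2 and 37.2 TPM in the Y/T KO colon libraries, and at 53.3, 86.8 and 71.2 TPM in Ctrl, against 64.0, 15.2 and 38.4 TPM in Y/T KO, in the bladder. Its 95% intervals were -2.04 to 0.98 in the colon and -2.25 to 0.16 in the bladder, so that only large differences were detectable for this gene. The other ligands, *Bmp3*, *Bmp6*, *Bmp7*, and *Gdf10*, overlapped between genotypes in both tissues, with colon levels from 3.28 (*Gdf10*, Ctrl) to 15.8 TPM (*Bmp3*, Ctrl) and bladder levels from 9.99 (*Bmp6*, Y/T KO) to 69.1 TPM (*Bmp3*, Ctrl).

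The latent TGF-beta binding proteins (LTBPs) all had log2 fold changes above 0 in the Y/T KO colon. The largest difference was that of *Ltbp2*, an LTBP of elastic fibers. Of the 4, 3 were higher without overlap between genotypes, beside 7.52% of all genes tested. Limma called 0 of the 4 in either tissue. In the colon, 2 (*Ltbp1* and *Ltbp2*) were higher at an unadjusted p under 0.05, beside 5.14% of all genes. In the bladder 1 (*Ltbp4*) was lower, beside 8.2% of all genes.

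*Ltbp2* (ENSMUSG00000002020, chromosome 12 from 84783212 to 84876532) was found at 0.149, 0.340 and 0.557 TPM in the Ctrl colon libraries, against 1.57, 2.61 and 3.73 TPM in the Y/T KO colon libraries (log2 fold change 2.67 ± 0.49 SE, unadjusted p = 0.000657, adjusted p = 0.143 by limma). The lowest Y/T KO value was above the highest Ctrl value. In Ctrl colon *Ltbp2* had the lowest mean of all 42 members, although its values overlapped those of *Bmpr1b*. Its level in the bladder was 3.84, 2.50 and 3.29 TPM in the Ctrl libraries, against 3.47, 3.66 and 4.88 TPM in the Y/T KO libraries, which overlapped (log2 fold change 0.31 ± 0.25 SE, adjusted p = 0.598 by limma). Since its Ctrl colon levels were near the added 0.1 TPM, its log2 fold change depends on that constant and was 1.87 with 0.5 TPM added and 1.41 with 1 TPM. The adjusted p was 0.0184 in the fit of all 12 libraries and 0.122 to 0.204 in the other settings that kept every library.

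*Ltbp1*, the main carrier of latent TGF-beta in many tissues, stood at 17.9, 19.8 and 13.8 TPM in the Ctrl colon libraries, against 25.3, 22.3 and 20.8 TPM in the Y/T KO colon libraries (log2 fold change 0.45 ± 0.17 SE, unadjusted p = 0.0256, adjusted p = 0.466 by limma). *Ltbp3*, a further carrier, stood at 12.7, 10.9 and 11.1 TPM in Ctrl, against 12.9, 16.3 and 15.9 TPM in the Y/T KO libraries (log2 fold change 0.41 ± 0.18 SE, unadjusted p = 0.0572, adjusted p = 0.53 by limma). Neither separated the genotypes in the bladder (43.9 to 50.9 TPM in Ctrl, 49.1 to 54.8 TPM in Y/T KO for *Ltbp1*, 47.7 to 50.9 TPM in Ctrl, 41.1 to 54.5 TPM in Y/T KO for *Ltbp3*). *Ltbp4*, which takes part in elastic fiber assembly, had the highest mean of the members in Ctrl bladder, although its values overlapped those of *Id2* (114 to 204 TPM). In the colon the genotypes overlapped for *Ltbp4* (67.6, 60.6 and 64.1 TPM in Ctrl, against 62.8, 97.6 and 50.8 TPM in the Y/T KO libraries). Its level in the bladder was 177, 177 and 149 TPM in the Ctrl libraries, against 142, 122 and 118 TPM in the Y/T KO libraries (log2 fold change -0.40 ± 0.12 SE, unadjusted p = 0.0128, adjusted p = 0.218 by limma), lower in every Y/T KO library. Without the accessory gland libraries this log2 fold change was -0.22.

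In TPM as deposited, the receptors were the only role in which no member separated the genotypes in either tissue. After rescaling, *Tgfbr3* was higher in every Y/T KO bladder library. Of 8 tested in the colon, 7 had a log2 fold change below 0, with a median of -0.08, and of 9 tested in the bladder 4 did, with a median of 0.05. Limma called 0 in either tissue, 0 had an unadjusted p under 0.05, and the genotypes overlapped for every receptor in both tissues in TPM as deposited. The intervals were narrow for the main type II receptor of TGF-beta, *Tgfbr2*, which stood at 44.6, 54.8 and 44.1 TPM in the Ctrl colon libraries, against 46.1, 49.8 and 40.8 TPM in the Y/T KO colon libraries (95% interval -0.34 to 0.28). In the bladder *Tgfbr2* was at 84.1, 96.5 and 87.8 TPM in Ctrl, against 85.5, 87.7 and 76.2 TPM in Y/T KO (95% interval -0.35 to 0.14). Of the 9 receptors among the members it was the most abundant in each tissue.

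*Tgfbr1*, the type I TGF-beta receptor, *Tgfbr3*, the co-receptor betaglycan, and *Bmpr1a*, a type I BMP receptor, were each highest in the colon library of Ctrl mouse 786, at 25.8, 24.7, and 51.2 TPM, against 13.1 to 18.0, 14.3 to 17.4, and 30.2 to 39.2 TPM in the other colon libraries. The same library was highest for *Acvr2a*, *Bmpr2*, and *Smad4*. The type II receptors *Bmpr2* and *Acvr2a* and the type I receptor *Acvr1* stood between 7.26 and 19.7 TPM in the colon and between 9.96 and 36.9 TPM in the bladder. *Acvr2b*, an activin type II receptor, was the lowest of the receptors tested in the colon, at 0.588 to 0.965 TPM in the Ctrl libraries, against 0.849 to 1.18 TPM in the Y/T KO libraries.

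*Bmpr1b*, a type I BMP receptor, was below the filter in the colon (0.212 to 0.736 TPM in the Ctrl libraries, against 0.367 to 0.466 TPM in the Y/T KO libraries) and was not tested there. Its level in the bladder was 14.7, 2.04 and 3.55 TPM in the Ctrl libraries, against 2.33, 24.2 and 20.96 TPM in the Y/T KO libraries, a 95% interval of -1.66 to 3.95 for the log2 fold change. The 3 high values, 14.7, 24.2, and 20.96 TPM, were those of the 3 libraries with accessory gland transcripts, and the 3 libraries without them held 2.04 to 3.55 TPM. The part of those glands in the *Bmpr1b* values was not tested.

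The secreted antagonists differed in direction from gene to gene in the colon and were lower in the Y/T KO bladder for *Fstl3* and *Chrd*. Limma called 0 of 5 in the colon and 0 of 4 tested in the bladder. Of the 5, *Nog* was higher and *Fstl3* lower in the colon, and *Fstl3* and *Chrd* were lower in the bladder, each at an unadjusted p under 0.05. Of all genes tested, 5.14% were higher and 4.59% lower at that threshold in the colon, and 8.2% lower in the bladder. The summed level of the 5 antagonists was 53.8 to 85.1 TPM in Ctrl bladder and 31.8 to 35.6 TPM in Y/T KO bladder, which did not overlap. Much of that sum was *Fstl3*, at 35.8 to 63.2 TPM in Ctrl and 13.0 to 19.9 TPM in Y/T KO. *Chrd* was also lower, whereas *Fst* and *Nog* overlapped there and *Grem1* was near 0.

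*Fstl3* (ENSMUSG00000020325, chromosome 10 from 79777272 to 79782630) encodes a follistatin-like protein that binds activins and myostatin. It stood at 14.7, 10.9 and 11.4 TPM in the Ctrl colon libraries, against 7.19, 8.33 and 9.02 TPM in the Y/T KO colon libraries (log2 fold change -0.54 ± 0.21 SE, unadjusted p = 0.033, adjusted p = 0.488 by limma). Its level in the bladder was 36.0, 63.2 and 35.8 TPM in the Ctrl libraries, against 19.9, 14.5 and 13.0 TPM in the Y/T KO libraries (log2 fold change -1.48 ± 0.26 SE, unadjusted p = 0.00102, adjusted p = 0.103 by limma). Every Y/T KO library was lower than every Ctrl library in both tissues, and the Ctrl bladder value of mouse 785 was the highest. Without that library the log2 fold change in the bladder was -1.20 (adjusted p = 0.211), and without the accessory gland libraries -1.28 (adjusted p = 0.618). In the fit of all 12 libraries the bladder difference of *Fstl3* had an adjusted p of 0.0298, and its adjusted p in the other settings that kept every library ran from 0.0996 to 0.169.

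The sequence before the start of *Fstl3*, the member with the largest fitted decrease in the bladder, covers 248 bases on the plus strand (GRCm38.p6, chr10:79777024-79777271), up to the first annotated exon. Capitals mark the SMAD box, GTCTG.
Fstl3: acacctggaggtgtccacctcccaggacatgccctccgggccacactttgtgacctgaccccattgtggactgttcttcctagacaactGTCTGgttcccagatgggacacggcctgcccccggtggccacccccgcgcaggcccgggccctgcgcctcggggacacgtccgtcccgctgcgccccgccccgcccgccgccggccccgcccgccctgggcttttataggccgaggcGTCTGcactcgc
GTCTG occurs 161 and 14 bases before the RefSeq start, CAGAC does not occur, and neither the TEAD letters nor GGCGCC were found on either strand in this window.

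*Chrd*, which encodes the BMP antagonist chordin, stood at 11.4, 12.1 and 13.5 TPM in the Ctrl bladder libraries, against 10.3, 5.62 and 7.75 TPM in the Y/T KO bladder libraries (log2 fold change -0.68 ± 0.21 SE, unadjusted p = 0.0148, adjusted p = 0.227 by limma). In the colon the genotypes overlapped, with 2.57, 3.49 and 2.71 TPM in the Ctrl libraries, against 3.35, 3.78 and 4.72 TPM in the Y/T KO libraries (log2 fold change 0.46 ± 0.24 SE, adjusted p = 0.58 by limma). The 2 lowest bladder values, 5.62 and 7.75 TPM, belonged to the Y/T KO libraries with accessory gland transcripts, and without the 3 libraries that held them the log2 fold change was -0.33. *Chrd* overlaps *Thpo* on the other strand, which stood at 1.29 to 1.77 TPM in the Ctrl bladder libraries, against 0.656 to 1.57 TPM in the Y/T KO bladder libraries.

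*Nog*, the gene of the BMP antagonist noggin, stood at 1.26, 1.31 and 1.17 TPM in the Ctrl colon libraries, against 2.79, 1.57 and 2.16 TPM in the Y/T KO colon libraries (log2 fold change 0.75 ± 0.30 SE, unadjusted p = 0.0357, adjusted p = 0.492 by limma). Its Y/T KO values were all above the Ctrl values, at a low level. Its level in the bladder was 0.614 to 1.40 TPM in the Ctrl libraries, against 0.273 to 0.943 TPM in the Y/T KO ones (log2 fold change -0.69 ± 0.54 SE, adjusted p = 0.593 by limma). *Fst*, the gene of follistatin, overlapped in both tissues, with 1.12 to 2.60 TPM in Ctrl, 0.847 to 1.995 TPM in Y/T KO, in the colon and 14.3, 8.27 and 3.89 TPM in Ctrl, against 4.98, 11.1 and 10.9 TPM in Y/T KO, in the bladder.

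*Grem1* (ENSMUSG00000074934, chromosome 2 from 113746164 to 113758646), the gene of gremlin 1, a BMP antagonist of the muscle and crypt base of the colon, stood at 54.9, 66.7 and 55.4 TPM in the Ctrl colon libraries, against 59.4, 51.5 and 99.98 TPM in the Y/T KO colon libraries (log2 fold change 0.24 ± 0.25 SE, adjusted p = 0.768 by limma). The genotypes overlapped, and the highest value was that of Y/T KO mouse 780. In the bladder *Grem1* was below the filter, at 0.0560 and 0.110 TPM in Ctrl mice 784 and 785, listed at 0 in Ctrl mouse 788, and 0.0670, 0.171 and 0.119 TPM in the Y/T KO libraries. Its sequence is shown because no other member differed as much between the tissues. It covers 250 bases upstream of the RefSeq start on the minus strand (GRCm38.p6, chr2:113758649-113758898), outside annotated exons, is written in the direction of the gene, and has the SMAD box CAGAC and the element GGCGCC in capitals.
Grem1: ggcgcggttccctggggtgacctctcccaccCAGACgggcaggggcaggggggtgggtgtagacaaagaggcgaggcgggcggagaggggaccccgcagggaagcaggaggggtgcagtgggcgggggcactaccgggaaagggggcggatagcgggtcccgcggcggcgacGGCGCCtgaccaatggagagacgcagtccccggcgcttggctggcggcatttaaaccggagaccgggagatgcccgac
CAGAC begins 219 bases and GGCGCC 78 bases before the start, and the TEAD letters were not found on either strand.

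The SMADs, which carry the signal to the nucleus, separated the genotypes for 3 of 8 members in each tissue in TPM as deposited. In the colon 1 was higher and 2 were lower without overlap, beside 7.52% and 8.28% of all genes, and in the bladder all 3 were lower, beside 10%. Limma called 0 of 8 in either tissue. At an unadjusted p under 0.05, 1 was lower in the colon (*Smad5*), beside 4.59% of all genes, and 0 differed in the bladder. The genotypes did not overlap for *Smad6* (higher), *Smad1*, and *Smad5* (lower) in the colon, and for *Smad1*, *Smad6*, and *Smad7* (all lower) in the bladder. The median log2 fold change of the SMADs was -0.09 in the colon and -0.07 in the bladder.

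*Smad5* and *Smad1* carry BMP signals. *Smad5* stood at 29.4, 31.0 and 25.0 TPM in the Ctrl colon libraries, against 14.2, 23.6 and 19.4 TPM in the Y/T KO colon libraries (log2 fold change -0.57 ± 0.20 SE, unadjusted p = 0.0245, adjusted p = 0.464 by limma). *Smad1* stood at 36.4, 45.4 and 40.6 TPM in Ctrl, against 35.5, 33.9 and 27.96 TPM in Y/T KO, in the colon (log2 fold change -0.30 ± 0.15 SE, unadjusted p = 0.0789, adjusted p = 0.569 by limma), and at 27.8, 28.6 and 27.8 TPM in Ctrl, against 26.5, 25.5 and 27.3 TPM in Y/T KO, in the bladder (log2 fold change -0.09 ± 0.09 SE, unadjusted p = 0.352, adjusted p = 0.678 by limma). The bladder separation of *Smad1* was small beside the level itself and was lost after rescaling. *Smad5* overlapped in the bladder (22.4 to 34.8 TPM in Ctrl, 29.1 to 33.6 TPM in Y/T KO).

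*Smad6* (ENSMUSG00000036867, chromosome 9 from 63953076 to 64022059) is an inhibitor that acts mainly on BMP signals. In TPM as deposited, *Smad6* was with *Id3* the only member whose genotypes separated in opposite directions in the tissues. It stood at 3.81, 2.92 and 3.27 TPM in the Ctrl colon libraries, against 4.39, 6.92 and 4.17 TPM in the Y/T KO colon libraries (log2 fold change 0.62 ± 0.27 SE, unadjusted p = 0.0517, adjusted p = 0.517 by limma). Its level in the bladder was 6.76, 5.97 and 5.46 TPM in the Ctrl libraries, against 5.33, 4.55 and 4.24 TPM in the Y/T KO libraries (log2 fold change -0.36 ± 0.18 SE, unadjusted p = 0.0859, adjusted p = 0.401 by limma). *Smad7*, which inhibits both branches, was at 14.8, 16.3 and 14.2 TPM in Ctrl, against 17.1, 17.1 and 9.08 TPM in Y/T KO, in the colon, where it overlapped, and at 10.3, 11.6 and 10.3 TPM in Ctrl, against 9.21, 8.93 and 8.21 TPM in Y/T KO, in the bladder, where it did not (log2 fold change -0.29 ± 0.13 SE, unadjusted p = 0.0644, adjusted p = 0.366 by limma). Without the accessory gland libraries, the bladder log2 fold changes of *Smad6* and *Smad7* were -0.12 and -0.27.

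The remaining SMADs overlapped in both tissues. *Smad4*, the shared partner and the most abundant SMAD, had a log2 fold change of 0.00 in each tissue, with 95% intervals of -0.35 to 0.35 in the colon and -0.23 to 0.24 in the bladder. *Smad2* and *Smad3*, which carry TGF-beta and activin signals, had intervals of -0.57 to 0.40 and -0.38 to 0.26 in the colon and of -0.34 to 0.21 and -0.28 to 0.13 in the bladder. *Smad9*, the least abundant SMAD in the colon, stood at 1.09 to 1.81 TPM in Ctrl, 0.599 to 1.61 TPM in Y/T KO, there and at 4.81 to 8.16 TPM in Ctrl, 6.98 to 10.5 TPM in Y/T KO, in the bladder.

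**Figure D3:**
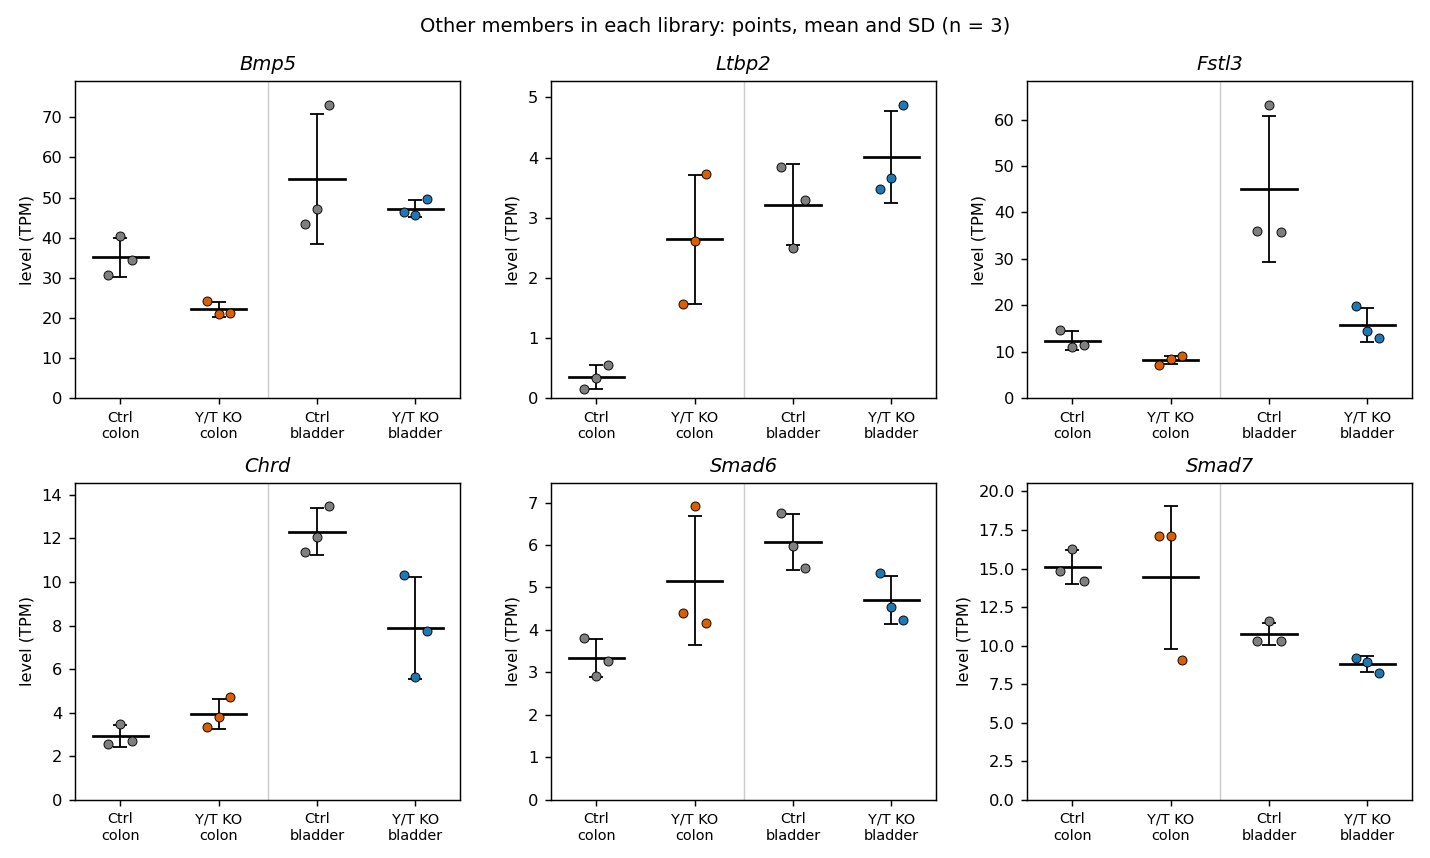
Levels in TPM (vertical axes, from 0) of 6 members in each of the 12 libraries (points, grouped by tissue and genotype), with the mean (line) and SD (bars) of 3 libraries. *Ltbp2* sits higher in every Y/T KO colon library than in every Ctrl colon library, *Bmp5* lower, *Fstl3* lower in both tissues, *Smad6* higher in the colon and lower in the bladder, and *Smad7* lower in the bladder.

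The difference of the Y/T KO effect between the tissues was tested for the 40 members that passed the filter in both. Limma called 0 of them, where 0.0491% of 16298 genes were called. At an unadjusted p under 0.05 the effect was higher in the colon for 10 members and lower for 2, beside 7.03% and 5.61% of all genes. The smallest adjusted p belonged to *Id3*, given above, followed by *Id1* (difference 1.33, SE 0.31, adjusted p = 0.188), *Ltbp2* (2.36, SE 0.57, adjusted p = 0.202), and *Chrd* (1.11, SE 0.30, adjusted p = 0.226). *Smad6*, *Fstl3*, *Ltbp3*, *Nog*, *Inhbb*, and *Tgfb1* followed in the same direction, and *Bmp2* (-0.70) and *Smad5* (-0.63) were those with a lower effect in the colon. All 4 ID genes and all 4 LTBPs had differences above 0, from 0.12 (*Id4*) to 2.36 (*Ltbp2*).

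The tissues themselves differed far more than the genotypes. Between Ctrl colon and Ctrl bladder, limma called 32 of 42 members, 5 higher and 27 lower in the colon, beside 25.6% and 25.9% of the 19439 genes tested. In Y/T KO mice 6 were higher and 24 lower in the colon, beside 26.3% and 26.1% of all genes. The median difference, colon minus bladder, was -0.90 in Ctrl and -0.61 in Y/T KO, on the log2 scale. Fibroblast markers (6 genes) summed to 1933 to 2561 TPM in Ctrl colon and 8071 to 9542 TPM in Ctrl bladder. Smooth muscle markers (7 genes) summed to 7476 to 8225 and 34863 to 45428 TPM. Of the marker lists, only intestinal epithelium was higher in Ctrl colon. The part of cell composition in the member differences was not tested. TPM as deposited shifts the median of all genes by -0.24 in Ctrl and -0.26 in Y/T KO between these tissues, and the differences given here are relative to size factors that remove that shift.

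*Grem1* had the largest difference, with a log2 of 8.78 in Ctrl (SE 0.32, limma adjusted p = 1.56e-09) and 8.50 in Y/T KO, values that depend on the 0.1 TPM added because the bladder was near 0. The other members higher in Ctrl colon were *Bmp2* (1.06), *Smad1* (0.79), *Id1* (0.79), and *Smad7* (0.75). With TPM as deposited the difference of *Smad7* was 0.49 and was not called (adjusted p = 0.0839), nor was it without the accessory gland libraries (0.0607). All 4 LTBPs were lower in Ctrl colon, from -2.75 for *Ltbp2* to -1.12 for *Ltbp4*, and so were 7 of 12 ligands, 7 of 9 receptors, 3 of 5 antagonists, 3 of 8 SMADs, and 3 of 4 ID genes. The largest differences toward the bladder were those of *Inhbb* (-3.05), *Bmpr1b* (-2.97), *Ltbp2* (-2.75), *Bmp3* (-2.06), *Smad9* (-1.98), and *Id2* (-1.95). For *Bmpr1b* the Ctrl bladder library of mouse 784, at 14.7 TPM, lay far above the others, and without it the difference was -2.15 and was not called (adjusted p = 0.0643). That call was also lost without the colon library of Ctrl mouse 788 (-2.60, adjusted p = 0.0616) and with 1 TPM added in place of 0.1 (-1.90, adjusted p = 0.0567). The calls of *Bmpr1a*, *Acvr2b*, and *Smad6* in Ctrl were lost without some single libraries, with adjusted p of up to 0.0784, 0.122, and 0.15. Of the 10 members not called, *Smad4* (0.09), *Smad2* (-0.07), and *Bmp6* (-0.13) had 95% intervals of -0.18 to 0.36, -0.46 to 0.32, and -0.64 to 0.39.

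For some members the difference between tissues was called in 1 genotype only or had opposite signs. *Id3* was lower in Ctrl colon than in Ctrl bladder (-0.98, adjusted p = 0.000528) and higher in Y/T KO colon than in Y/T KO bladder (0.54, adjusted p = 0.0191). With TPM as deposited the difference in Y/T KO was 0.27 (adjusted p = 0.153), without the colon library of mouse 783 it was 0.42 (adjusted p = 0.0755), and without the accessory gland libraries 0.53 (adjusted p = 0.181). *Ltbp2* differed by -2.75 between the Ctrl tissues and by -0.38 between the Y/T KO tissues (adjusted p = 0.45). *Nog* was higher in the Y/T KO colon (2.13, adjusted p = 0.00113), with 0.72 between the Ctrl tissues (adjusted p = 0.172). *Bmp2* was higher in Ctrl colon and differed by 0.36 in Y/T KO (adjusted p = 0.179). The interaction given above is the test of these shifts, and it called none of the 4.

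**Figure D4:**
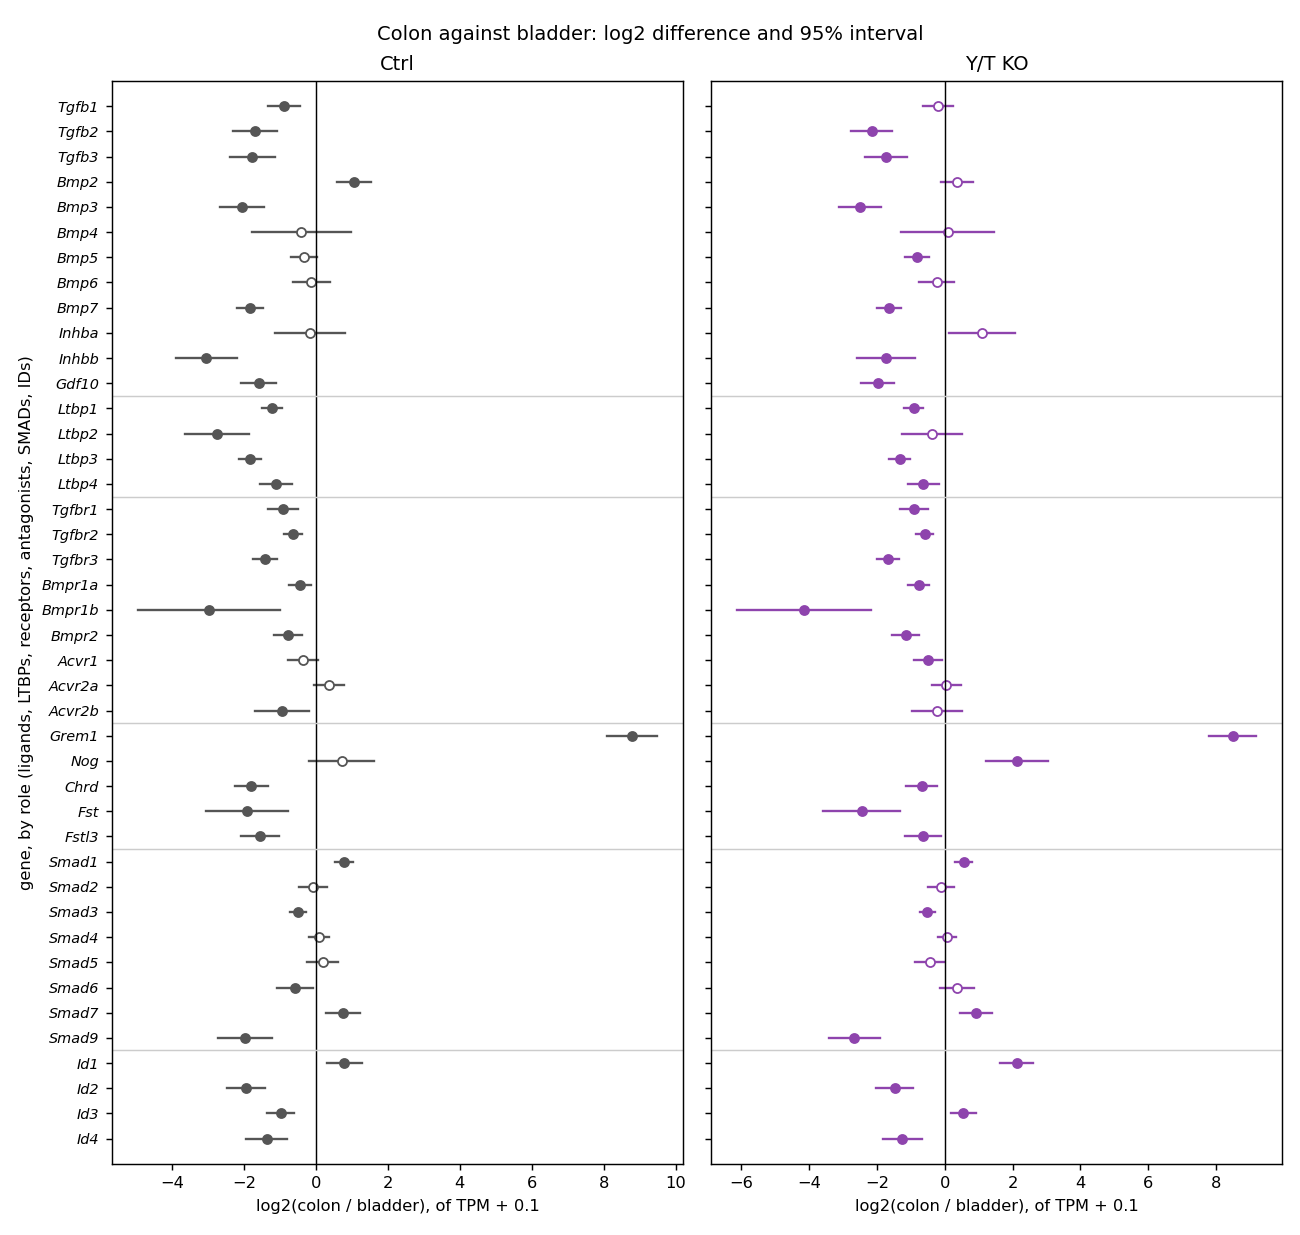
Log2 difference of colon against bladder, of TPM + 0.1 (horizontal axes), with its 95% interval (lines) for the 42 members ordered by role (vertical axis), in Ctrl and in Y/T KO mice; filled points are called at an adjusted p under 0.05. Most points lie left of 0, toward the bladder, and *Grem1* lies far to the right, at 8.78 in Ctrl and 8.50 in Y/T KO.

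Of 67 other genes of the pathway reported here, 49 passed the filter in the colon and 56 did so in the bladder. At an unadjusted p under 0.05, 3 of these 49 were higher and 3 lower in the colon, beside 5.14% and 4.59% of all genes tested. In the bladder 7 of these 56 were higher and 6 lower, beside 6.64% and 8.2% of all genes, and limma called 0.

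In the colon the 4 smallest p-values among them were those of the BMP ligand gene *Bmp8b* (1.68, 1.81 and 2.24 TPM in the Ctrl libraries, against 0.828, 0.365 and 0.696 TPM in the Y/T KO libraries, adjusted p = 0.324), the BMP co-receptor gene *Rgma* (4.44, 5.83 and 5.56 TPM in Ctrl, against 8.07, 10.8 and 8.37 TPM in Y/T KO, adjusted p = 0.328), the TGF-beta response gene *Pmepa1* (39.5, 24.8 and 28.3 TPM in Ctrl, against 37.1, 53.6 and 53.6 TPM in Y/T KO, adjusted p = 0.464), and *Tgif1*, the gene of a corepressor of SMADs (71.7, 118 and 66.2 TPM in Ctrl, against 65.8, 48.4 and 49.4 TPM in Y/T KO, adjusted p = 0.479). In the bladder they were those of the BMP co-receptor gene *Rgmb* (27.2, 21.8 and 29.8 TPM in the Ctrl libraries, against 48.6, 47.4 and 36.4 TPM in the Y/T KO libraries, adjusted p = 0.148), the gene of the proprotein convertase furin, *Furin* (46.7, 50.5 and 47.2 TPM in Ctrl, against 40.1, 30.2 and 32.8 TPM in Y/T KO, adjusted p = 0.148), and the antagonist genes *Chrdl2* (3.17, 7.74 and 3.70 TPM in Ctrl, against 0.521, 1.40 and 1.22 TPM in Y/T KO, adjusted p = 0.161) and *Sostdc1* (14.1, 13.8 and 11.7 TPM in Ctrl, against 9.87, 8.18 and 6.90 TPM in Y/T KO, adjusted p = 0.182). *Pmepa1* overlapped between genotypes in the colon, and the other 7 did not overlap in the tissue named. *Chrdl2*, *Sostdc1*, and *Furin* were lower in every Y/T KO bladder library and *Rgmb* was higher. The TGF-beta response genes given here were *Tgfbi*, *Pmepa1*, *Ccn2*, *Thbs1*, and *Ldlrad4*. Among these, *Ccn2* is the gene named above as the YAP target *Ctgf*. Of the TGF-beta response genes given here and tested in the colon, 4 of 5 had log2 fold changes above 0, and of the BMP response genes 4 of 4, beside 50.9% of all genes. Of these, 2 and 0 were higher at an unadjusted p under 0.05, beside 5.14% of all genes. In the bladder 2 of 5 were above 0 in each of these lists, beside 50.2% of all genes.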

How the data were processed

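Whole colon and bladder RNA was sequenced by the authors from poly(A)-selected, stranded libraries. Per the labels, the reads were handled with bcl2fastq, FastQC, HISAT2, StringTie, and DESeq2 on GRCm38, with versions not given in the sources used here. The deposited per-library tables hold StringTie TPM, FPKM, and coverage per gene, and no read counts, so the count model of the study could not be the test here. Coverage served only for the aligned sequence behind each library, since TPM keeps no depth. FPKM entered as an alternative. Rows that shared a gene identifier were summed, which left 54532 genes.

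TPM values were rescaled by size factors (median of ratios), per tissue for the genotype comparisons and over all 12 libraries for the others, and 0.1 was added before log2. The 0.5 TPM filter had to be met in 3 of 6 libraries, in both tissues for the difference of effects and in either for tissue contrasts. Tests were from limma 3.58.1 (R 4.3.3, eBayes with trend and robust), two-sided, with Benjamini-Hochberg adjustment over all genes tested, and were checked on simulated data. Tables and plots were made with Python 3.11.15, pandas 2.3.3, numpy 2.4.6, and matplotlib 3.10.9. Positions are from GENCODE release M21.

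Groups came from the labels. The 42 members and all lists were chosen with earlier results of these data known. A member is given in every library where its adjusted or unadjusted p was under 0.05 or the genotypes did not overlap in TPM as deposited, and otherwise by range. Of 67 other pathway genes, those called or with the 4 smallest p in a tissue are named. A further gene of that list is not reported here and enters none of its counts. The accessory gland, striated muscle, and early response lists, and the fit without the bladder libraries that held accessory gland transcripts, were added after the values were seen. The striated muscle pair *Mylpf* and *Tnnt3* summed to 3313 and 3520 TPM in the bladder libraries of mice 783 and 780 and to 225 to 458 TPM in the other bladder libraries. Mice 788, 783, and 780 gave both tissues, and mouse was fitted as a block in an alternative. Deviations from the group means correlated at a mean of 0.044 over these 3 pairs (-0.0162 to 0.0889) and at -0.00891 over 15 pairs of different mice.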

Additional observations from a re-analysis of the deposited data

Results flagged for a closer look

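*Id3* drew attention because every Y/T KO library was above every Ctrl library in the colon and below every Ctrl library in the bladder. The difference of its log2 fold change, colon minus bladder, was 1.52 (SE 0.24, limma adjusted p = 0.0683), which did not pass the threshold.

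*Smad6* drew attention for the same reason, with a difference of 0.96 (limma adjusted p = 0.283). Of these, *Id3* was called in the bladder alone and *Smad6* in neither tissue. Groups of 3 libraries are too small for a search for single outlying libraries.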

How the results depend on the processing

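Direction under the alternatives was followed for the members called in a comparison. Outside the tissue contrasts it was also followed for members at an unadjusted p under 0.05 or without overlap between genotypes. The other pathway genes named for a tissue were followed there too. None of these changed direction under any alternative, and the direction of the remaining members was not followed. In the colon 0 members were called, and 2 (*Id1* and *Ltbp2*) with all 12 libraries in 1 fit. Leaving out 1 library gave 0 to 1, the 1 being *Id4* without Y/T KO mouse 759. The 12 colon members at an unadjusted p under 0.05 became 7 to 11, with 7 without Ctrl mouse 788. In the bladder 2 members were called, 0 without trend and robust, 1 (*Fstl3*) with all 12 libraries in 1 fit, and 0 whichever library was left out. At an unadjusted p under 0.05 the 5 bladder members became 5 to 9, with 8 without Ctrl mouse 784 and 9 without Y/T KO mouse 782. Without the 3 accessory gland libraries, an alternative chosen after seeing the data, 0 bladder members were called and 3 had an unadjusted p under 0.05. For the difference between tissues 0 members were called, and 1 (*Id3*) with TPM as deposited, with FPKM as deposited, and without Ctrl colon 786 or Y/T KO colon 759, a range of 0 to 1 over libraries left out. Its 12 members at an unadjusted p under 0.05 became 6 to 13, with 6 without Ctrl colon 786 or Y/T KO bladder 783, and 3 without the accessory gland libraries. Between tissues, 29 to 32 members were called in Ctrl and 26 to 31 in Y/T KO when 1 library was left out. The cause of these shifts was not tested, and a fit on fewer libraries has less power by construction.

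With mouse as a replicate block, 0 members were called for the difference between tissues and 12 had an unadjusted p under 0.05, and 32 and 30 were called between the Ctrl and the Y/T KO tissues, as without the block. The within-mouse correlation was 0.0566 for the difference and 0.05 for both tissue contrasts. The block changed no other call. The genotype comparisons within a tissue hold no mouse more than once.

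Calls over all genes numbered 24 for the colon and 55 for the bladder. The colon count was 6 without the filter, 71 with all 12 libraries in 1 fit, and 5 to 63 with 1 library left out. The bladder count was 11 to 51 with 1 library left out and 2 without the accessory gland libraries. For the difference between tissues 8 genes were called, and 6 to 28 with 1 library left out. Between the Y/T KO tissues 10178 genes and 33 other pathway genes were called, and 6721 and 19 without the accessory gland libraries. With 3 libraries per group and no read counts, intervals rest on the spread between mice, which limma pulls toward a trend over all genes tested. Values near 0.1 TPM are poorly determined.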
